A study of Mus musculus with 6 samples.

Results

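Immediate early genes were described in 6 single-cell RNA-sequencing libraries of dissociated mouse retina: Fos, Fosb, Jun, Junb, Jund, Egr1, Ier2, Atf3 and Klf6, 9 of the 27040 gene identifiers that all libraries share. The genes were chosen by name and matched by Ensembl identifier. Their unique molecular identifiers (UMIs, each 1 captured RNA molecule) were summed over barcodes with more than 300 genes and at most 15% of UMIs from mitochondrial genes. Levels are given as UMIs per 1000000 UMIs of the same cells (CPM), and intervals are exact 95% Poisson or binomial intervals that cover counting error only.

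The libraries came from neurosensory retina of wild type C57BL/6J mice at embryonic day 14 (E14), embryonic day 16 (E16), postnatal day 0 (P0), postnatal day 3 (P3, 2 libraries) and postnatal day 6 (P6). Retinas of several animals were pooled for each library, digested with papain at body temperature, triturated and sorted for single cells that excluded DAPI, and the study used them to follow photoreceptor development. No group carried a transgene or received a treatment. The methods describe the same dissociation protocol for every library, with the papain time given only as an upper limit. How long each library spent in it is not given, so it may have differed between ages. No library was left undissociated, so a response to dissociation cannot be told apart from expression in the intact tissue.

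Immediate early genes are transcribed within minutes of a stimulus and need no new protein for it, because their promoters are held by factors such as SRF and CREB that kinases of the ERK, JNK and p38 pathways activate. Fos and Jun proteins pair into the AP-1 transcription factor, and enzymatic dissociation at a warm temperature is known to switch these genes on in many tissues. In the retina, Fos is also known to follow the light cycle in intact tissue.

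The sequences just before the start sites of Fos, Fosb, Jun and Junb are shown. Among the genes whose sequence was at hand, these AP-1 genes had the largest ratios between the last and the first age. Jund, the remaining Jun family gene, had the smallest. Egr1 had a larger ratio than any of them, but its sequence was not at hand. Each run holds the 250 bases before the RefSeq start site (GRCm38.p6), read 5′ to 3′ on the strand of the gene, and capitals mark matches to a searched motif. The windows lie at chr12:85473640-85473889 on the plus strand (Fos), chr7:19310046-19310295 on the minus strand (Fosb), chr4:95052223-95052472 on the minus strand (Jun) and chr8:84978749-84978998 on the minus strand (Junb).
Fos: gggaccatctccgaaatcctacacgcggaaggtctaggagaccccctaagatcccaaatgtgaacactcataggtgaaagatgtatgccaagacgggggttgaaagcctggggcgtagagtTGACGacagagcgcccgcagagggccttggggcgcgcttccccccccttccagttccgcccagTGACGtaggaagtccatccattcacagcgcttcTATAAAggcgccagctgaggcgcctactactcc
Fosb: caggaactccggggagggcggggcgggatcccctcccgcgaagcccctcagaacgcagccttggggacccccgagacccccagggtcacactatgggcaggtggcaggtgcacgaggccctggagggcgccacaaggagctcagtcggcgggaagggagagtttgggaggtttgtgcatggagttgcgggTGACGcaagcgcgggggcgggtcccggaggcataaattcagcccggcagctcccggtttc
Jun: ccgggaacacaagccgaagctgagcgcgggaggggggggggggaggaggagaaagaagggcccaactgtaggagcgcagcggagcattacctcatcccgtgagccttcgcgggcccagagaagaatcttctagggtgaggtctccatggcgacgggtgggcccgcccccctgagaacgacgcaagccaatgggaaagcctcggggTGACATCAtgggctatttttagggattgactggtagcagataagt
Junb: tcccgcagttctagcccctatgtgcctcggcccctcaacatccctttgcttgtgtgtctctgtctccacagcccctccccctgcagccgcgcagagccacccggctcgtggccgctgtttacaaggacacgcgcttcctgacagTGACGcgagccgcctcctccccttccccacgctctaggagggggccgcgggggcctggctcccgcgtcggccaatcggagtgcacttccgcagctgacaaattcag

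Both strands of each window were searched for TGACG (the core of a CREB site), TGACNTCA (the longer form bound by CREB, ATF and Jun dimers), TGANTCA (the AP-1 site), TATAAA and the CArG box of SRF, of which the first pair can overlap where N is G. Fos held TGACG 129 and 66 bases before its start and TATAAA 33 bases before it. Fosb held TGACG 60 bases before its start, Junb held it 106 bases before, and Jun held TGACATCA 45 bases before. Among the 32851 RefSeq windows, 17.8% held TGACG, 7.49% TGACNTCA, 6.75% TGANTCA, 12.4% TATAAA and 1.47% a CArG box. Windows were at hand for 7 of the 9 genes: 4 held TGACG, 2 held TGACNTCA, 1 held TATAAA and 0 held TGANTCA or a CArG box. The Jund window held 0 of the motifs, and its RefSeq start lies 1210 bases from the start of the gene in the GENCODE annotation. Bases further upstream than the windows, and the promoters of Egr1 and Ier2, were not searched. A count of 0 therefore does not show that a gene lacks the motif. These matches describe the letters of the windows and no binding was measured.

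In the mm10 (GRCm38) annotation, Jund (chromosome 8, 70698949 to 70700616) and Jun (chromosome 4, 95049034 to 95052222) each overlap 1 antisense gene, Junb (chromosome 8, 84974484 to 84978718) overlaps the end of Prdx2 on the opposite strand, and Fos (chromosome 12, 85473890 to 85477273), Fosb (chromosome 7, 19302696 to 19310051), Ier2 (chromosome 8, 84661331 to 84662852) and Klf6 (chromosome 13, 5861482 to 5870394) overlap 0 other genes.

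Between 2971 and 15716 cells were kept per library, with 32621193 to 107496590 UMIs. E16 and the second P3 library were deposited in an older file layout and hold 2971 and 3238 cells, against 10427 to 15716 in the other 4 libraries, and each of their cells has at least 2000 UMIs. The second P3 library stood apart: 57.9% of its cells held UMIs of 2 or more of the 5 marker genes used here, against 5.83% to 30.5% elsewhere, and the summed level of 7 ganglion cell markers was 988 CPM in it and 98.0 CPM in the first P3 library. File layout, cell number and age differ together for these libraries, and counts of tested genes within the newer layout or without the second P3 library are given below where they differ most. Pairs of libraries shared 0 to 69 barcodes. Summed over each library, the markers of microglia came to 6.69 to 22.6 CPM, of blood vessels to 28.3 to 68.1 CPM, and of red blood cells to 0.0744 CPM at P0 and 451.0 CPM at E14, and their part in the levels below was not tested.

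Fos, which encodes the founding partner of AP-1, was far higher in the postnatal than in the embryonic libraries. Its level was 4.996 CPM (E14), 12.4 (E16), 200.5 (P0), 317.3 (first P3 library), 123.2 (second P3 library) and 369.0 CPM (P6). All 4 postnatal libraries lay above both embryonic ones, with P6 73.9-fold above E14 and P0 16.2-fold above E16. The P3 pair, the only libraries of 1 age, differed by 2.58-fold. Fosb, a close relative that replaces Fos in AP-1, was at 8.38, 2.33, 38.5, 70.7, 13.7 and 93.4 CPM in the same order. The second P3 library was again low, 5.15-fold under the first, and only 1.64-fold above E14.

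Jun, the partner that binds Fos and is switched on through JNK, was at 134.9 CPM at E14, 65.0 at E16, 263.1 at P0, 518.6 and 135.0 at P3, and 705.0 at P6. The second P3 library equalled E14 within counting error, so the P6 to E14 ratio of 5.23 stands beside a 3.84-fold gap within P3. Junb, a Jun relative with weaker activating ability, was at 4.12, 7.38, 39.2, 45.0, 48.8 and 56.5 CPM. Here the P3 libraries differed by only 1.08-fold, P6 was 13.7-fold above E14, and the largest step in the order of levels was the 5.31-fold one from E16 to P0. Jund, the Jun gene known for steady transcription in resting cells, was at 483.5, 485.5, 460.7, 745.1, 834.2 and 892.1 CPM. The levels at E14, E16 and P0 lay within 1.05-fold of each other, and P6 was 1.84-fold above E14.

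Egr1, a zinc finger transcription factor induced through SRF, had the largest P6 to E14 ratio of the 9 genes, 284.5-fold. It went from 1.12 CPM at E14 to 11.7 at E16, 188.0 at P0, 223.6 and 185.6 at P3 and 317.6 at P6. The P3 libraries differed by 1.20-fold, while the steps from E14 to E16 (10.5-fold) and from E16 to the second P3 library (15.8-fold, both in the older layout) were much larger. Ier2, a short-lived nuclear regulator, was at 50.8, 38.4, 142.6, 155.4, 107.6 and 181.8 CPM, with the 4 postnatal libraries above the embryonic pair. Atf3, a stress-induced factor of the ATF family, was barely detected, at 0.874, 0.273, 0.863, 3.08, 0.429 and 2.40 CPM. Its 12 UMIs at E16 and 14 in the second P3 library allow no order among the low libraries, and the P3 pair differed by 7.18-fold. Klf6, a zinc finger factor of growth and injury responses, was at 41.8, 36.7, 62.1, 87.8, 36.1 and 91.4 CPM, and the second P3 library was level with E16.

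**Figure D1:**
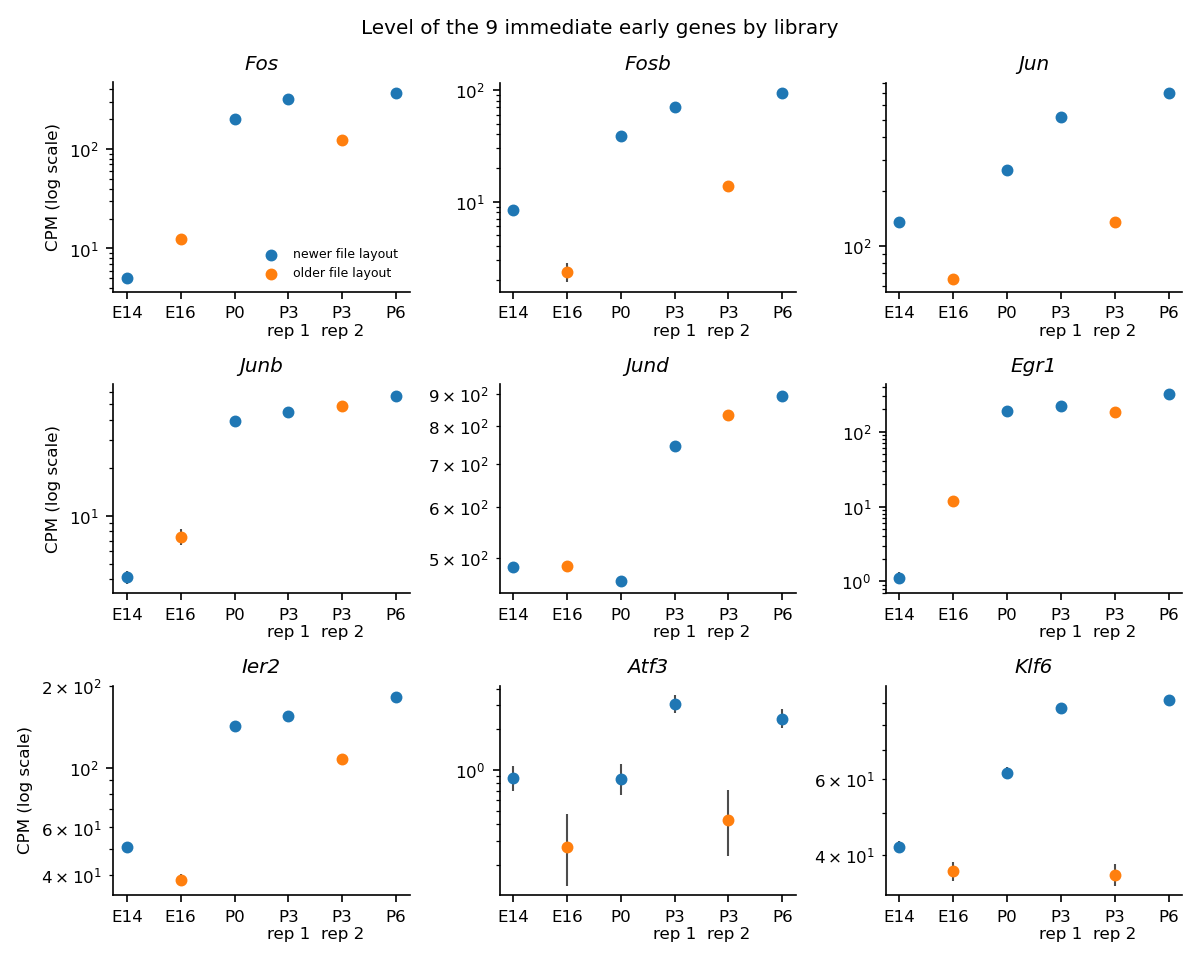
Level of each gene (CPM, log axis, each panel with its own range) in the 6 libraries, with exact 95% Poisson intervals for counting error. Fos and Egr1 lie at 123.2 CPM or more in all 4 postnatal libraries and at 12.4 CPM or less in both embryonic ones, whereas Jund lies between 460.7 and 892.1 CPM throughout, and at P3 the library in the older file layout (orange) is past 2-fold lower for Fos, Fosb, Jun, Atf3 and Klf6.

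For 6 of the 9 genes (Fos, Fosb, Jun, Junb, Egr1 and Ier2) all 4 postnatal libraries lay above both embryonic ones, which held for 21.0% of the 10529 genes with a mean of at least 5 CPM, and for 0 of the 9 all 4 lay below, against 5.78%. For Jun this rests on 135.0 against 134.9 CPM, and Klf6 misses it by the second P3 library alone, its other postnatal libraries being at 62.1 CPM or more against 41.8 and 36.7 CPM. Between P6 and E14, 8 of the 9 genes were past 2-fold higher, Jund being the exception, against 15.1% of all genes, and 0 were past 2-fold lower, against 7.28%, and Atf3 is not among the 10529 since its mean is under 5 CPM. Between the P3 libraries, 5 of the 9 genes (Fos, Fosb, Jun, Atf3 and Klf6) were past 2-fold higher in the first, against 14.8% of all genes, and 0 were past 2-fold lower, against 7.63%. The difference between P6 and E14 was larger than that between the P3 libraries for Fos, Fosb, Jun, Junb, Jund, Egr1 and Ier2, and smaller for Atf3 and Klf6. Every age other than P3 rests on a single library, so the ages could not be tested, and the gap within P3 limits Fosb, Jun, Atf3 and Klf6 most.

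Levels also moved with the mitochondrial share of a cell, a measure of cell quality. At P6, Fos was at 348.3 CPM in cells with at most 3% mitochondrial UMIs, 397.0 in cells with 3% to 6% and 270.8 in cells with 6% to 15%. Jun was at 909.7, 694.6 and 545.1 CPM in the same classes. At E14, Fos was at 4.05, 5.27 and 3.56 CPM, so in each class P6 lay far above E14.

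The gap between embryonic and postnatal libraries was also seen within groups of cells defined by a marker gene. Cells with Mki67, a gene of dividing cells, held Fos at 6.86 CPM at E14, 13.4 at E16, 266.9 at P0, 400.5 and 135.7 at P3 and 441.7 at P6. Cells with Tfap2b, a gene of amacrine and horizontal cells, held it at 4.13, 10.5, 75.4, 219.9, 114.8 and 278.7 CPM. Cells with Rlbp1, the retinoid-binding protein of Müller glia and late progenitors, held it at 5.08, 27.5, 348.9, 480.0, 129.4 and 658.9 CPM. In all of these groups the 4 postnatal libraries lay above the embryonic pair. The order of the groups differed between libraries, also within P3. Rlbp1 cells were highest at E16, P0, the first P3 library and P6. At E16 the 142 Rlbp1 cells had a median of 33282 UMIs, against 8009 in the other cells, and only 15 held none of the other markers. Mki67 cells were highest at E14, where only 132 cells held Rlbp1, and in the second P3 library. Cells with Pou4f2, a gene of ganglion cells, were lowest wherever they were found (1.961, 6.68, 37.7 and 51.0 CPM at E14, E16, P0 and the second P3 library).

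Egr1 showed the same step within groups. In Mki67 cells it was at 0.931, 13.4, 236.5, 267.2, 214.4 and 388.2 CPM. In Tfap2b cells it was at 1.98, 11.02, 133.2, 177.5, 177.5 and 265.6 CPM, so that P6 was 134.1-fold above E14 there. That fold is imprecise, since the E14 level rests on few Egr1 UMIs in a sum of 6060026 UMIs. In Pou4f2 cells it was at 0.896, 7.86, 51.5 and 69.2 CPM in the 4 libraries that hold such cells. In bulk sums of this kind, more cells expressing a gene and more RNA per cell cannot be told apart, so the share of cells is given further on.

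**Figure D2:**
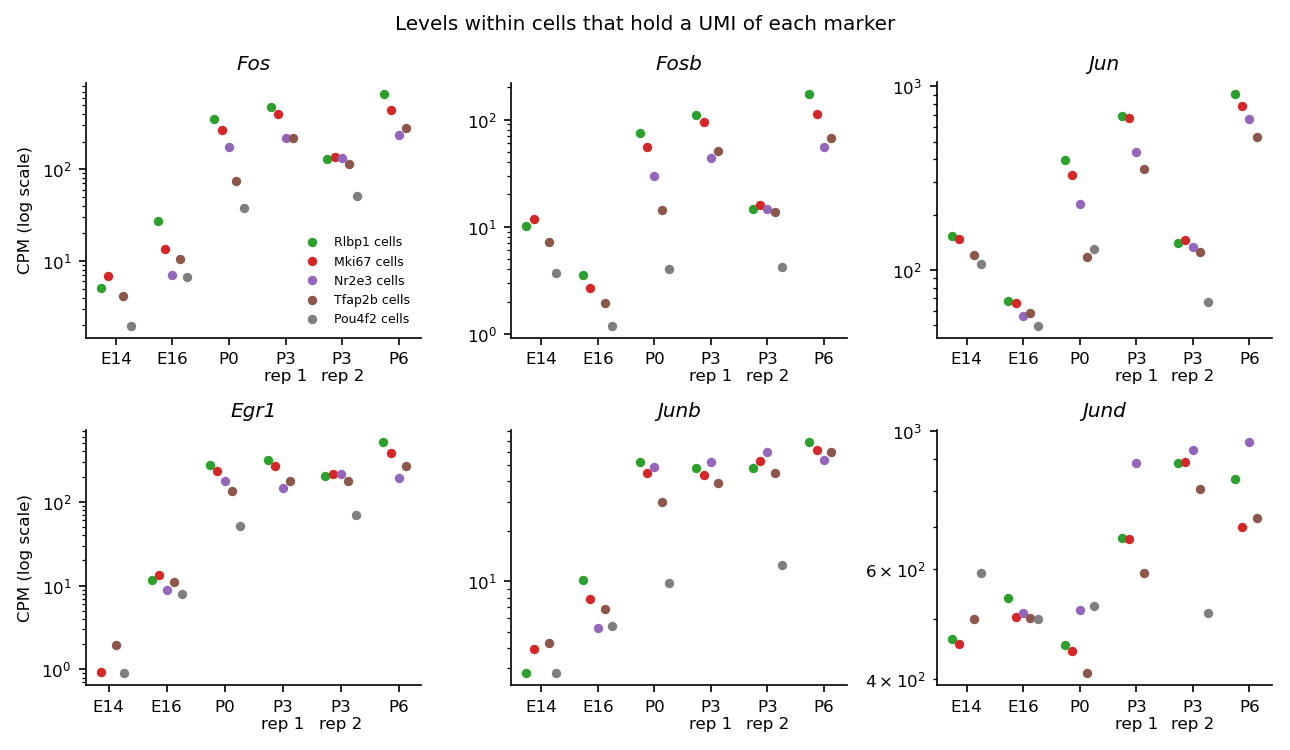
Levels of 6 of the genes (CPM, log axis) in cells with at least 1 UMI of Rlbp1, Mki67, Nr2e3, Tfap2b or Pou4f2, by library, for groups of at least 20 cells with at least 1 UMI of the gene. For Fos, Egr1 and Junb every group is higher in the postnatal than in the embryonic libraries, with Pou4f2 cells lowest from P0 on, while the Jund panel spans less than a 3-fold range.

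Within libraries, cell groups were compared by summing the UMIs of cells with and without a marker and testing the sums with edgeR's quasi-likelihood test, with each library as a block and Benjamini-Hochberg adjustment over all genes tested. A marker UMI is more often seen in deep cells, and groups overlap where a cell holds several markers. The groups carried the genes of their types: 6 of 8 glial genes were higher in Rlbp1 cells, 6 of 6 cell cycle genes in Mki67 cells, 7 of 7 rod genes in Nr2e3 cells, 4 of 6 amacrine and horizontal cell genes in Tfap2b cells and 7 of 7 ganglion cell genes in Pou4f2 cells, the marker itself not among them. The glial genes do not mark Rlbp1 cells alone, since 6 of 8 were also higher, and 1 lower, in Mki67 cells (median 0.86, against 0.85 in Rlbp1 cells). Rlbp1 cells were compared in all 6 libraries, and 4 of the 9 genes were higher and 0 lower in them at an adjusted p under 0.05, against 10.6% and 13.8% of all genes. Fos was higher by 1.09 ± 0.25 (SE) on the log2 scale (edgeR adjusted p = 0.0215) and in 6 of 6 libraries, Fosb by 1.11 ± 0.27 (adjusted p = 0.0261), Ier2 by 0.51 ± 0.13 (adjusted p = 0.0289) and Jun by 0.45 ± 0.12 (adjusted p = 0.0305). Egr1 (0.71 ± 0.24, edgeR adjusted p = 0.0633) and Klf6 (0.69 ± 0.24, adjusted p = 0.0655) did not pass, and Jund differed by 0.01 ± 0.08. The ratio of Fos in Rlbp1 cells to other cells was largest at P6 (2.07 on the log2 scale) and near 0 at E14 (0.02) and in the second P3 library (0.13). The E14 ratio is imprecise, since it rests on few Fos UMIs in 132 Rlbp1 cells with 1771733 UMIs in all. Without P0 or without the first P3 library, 0 of the 9 genes passed. In those fits 173 of 13912 and 251 of 13889 genes of any kind were higher, and 735 and 674 lower. Among cells that held none of the other markers 8 of the 9 genes were higher, as were 1410 of 12438 genes of any kind. In the 4 libraries of the newer layout 6 were higher, as were 1546 of 14236 genes of any kind. Of 4 astrocyte markers, 3 could be tested and 3 were higher in Rlbp1 cells (median log2 fold change 2.60, against 0.85 for the glial genes), and their part in the result was not tested.

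Mki67 cells were higher in 7 of the 9 genes and lower in 0, in a comparison where 22.3% of all genes were higher and 21.1% lower. Fosb was higher by 1.17 ± 0.21 (edgeR adjusted p = 0.00335), Fos by 0.88 ± 0.19 (adjusted p = 0.00657), Klf6 by 0.80 ± 0.19 (adjusted p = 0.00977), Atf3 by 0.70 ± 0.23, Egr1 by 0.59 ± 0.19, Jun by 0.51 ± 0.11 and Ier2 by 0.47 ± 0.12. Fos, Fosb and Jun were higher in Mki67 cells of 6 of 6 libraries. Junb (0.28 ± 0.11, edgeR adjusted p = 0.0761) and Jund (0.03 ± 0.12, adjusted p = 0.854) did not pass. The median of the 9 log2 fold changes was 0.59 against -0.01 over all genes. In the 4 libraries of the newer layout, 4 of the 9 genes were higher, as were 3175 of 14362 genes of any kind.

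Cells with Nr2e3, a transcription factor of rods, could be compared in 5 libraries, since E14 had 0 such cells, and E16 entered with 21 cells of a median 30518 UMIs. Only Klf6 passed, and it fell by 0.63 on the log2 scale (SE 0.14, edgeR adjusted p = 0.0201), where 10.3% of all genes were higher and 12.9% lower. For Fos and Egr1 the second P3 library went the other way from the rest. Its Nr2e3 cells were above its other cells in Fos (log2 ratio 0.45) and Egr1 (1.12), whereas at P6 they were below in Fos (-1.01) and Egr1 (-1.11). Ier2 was higher in Nr2e3 cells of 2 of 5 libraries, among them the second P3 library (0.62), and lower at P6 (-0.94). Without the second P3 library 4 of the 9 genes were lower, as were 2291 of 14152 genes of any kind. Leaving out P0, the first P3 library or P6 left 0 of the 8 or 9 tested lower. In those fits 659 of 13903, 625 of 14021 and 610 of 13666 genes of any kind were lower. Among the 3 libraries of the newer layout with Nr2e3 cells, 6 of the 9 were lower and 1 was higher. In that fit 3813 of 14322 genes of any kind were lower and 3154 higher. In the second P3 library 65.5% of Rlbp1 cells also held Nr2e3, against 11.6% in the first and 23.0% at P6.

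Tfap2b cells differed in 0 of the 9 genes in edgeR's test, in which 0.307% of all genes were higher and 0.0657% lower, while 3062 of the 13699 genes had an unadjusted p under 0.05. Fos was lower in Tfap2b cells of 6 of 6 libraries (-0.64 ± 0.19, edgeR adjusted p = 0.146), as were Jun (-0.53 ± 0.17, adjusted p = 0.150) and Klf6 (-0.38 ± 0.16, adjusted p = 0.218). With DESeq2 2 of the 9 genes were lower, as were 463 of 13167 genes of any kind. With every cell thinned to 2000 UMIs 5 of the 8 tested were lower, as were 1405 of 11555 genes of any kind.

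Pou4f2 cells were found in 4 libraries and were lower in 5 of the 9 genes and higher in 0, against 8.11% and 12.7% of all genes. Fosb fell by 1.89 on the log2 scale (SE 0.38, edgeR adjusted p = 0.0277), Fos by 1.62 (SE 0.25, adjusted p = 0.0210), Junb by 1.31 (SE 0.32, adjusted p = 0.0386), Egr1 by 1.24 (SE 0.27, adjusted p = 0.0314) and Jun by 0.76 (SE 0.16, adjusted p = 0.0304). All of these were lower in Pou4f2 cells of 4 of 4 libraries, whereas Jund was higher in 3 of 4 and differed by -0.05 ± 0.19 in the fit. Without the second P3 library 0 of the 9 genes passed, as 0 genes of any kind then did. Whether the effect of Rlbp1, Mki67 or Tfap2b differed between the postnatal and the embryonic libraries was tested by an interaction term, and 0 of the 9 genes, and 0.0% of all genes in either direction, passed in edgeR, with 977, 1366 and 1638 genes at an unadjusted p under 0.05 and 8, 111 and 337 genes called by DESeq2.

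**Figure D3:**
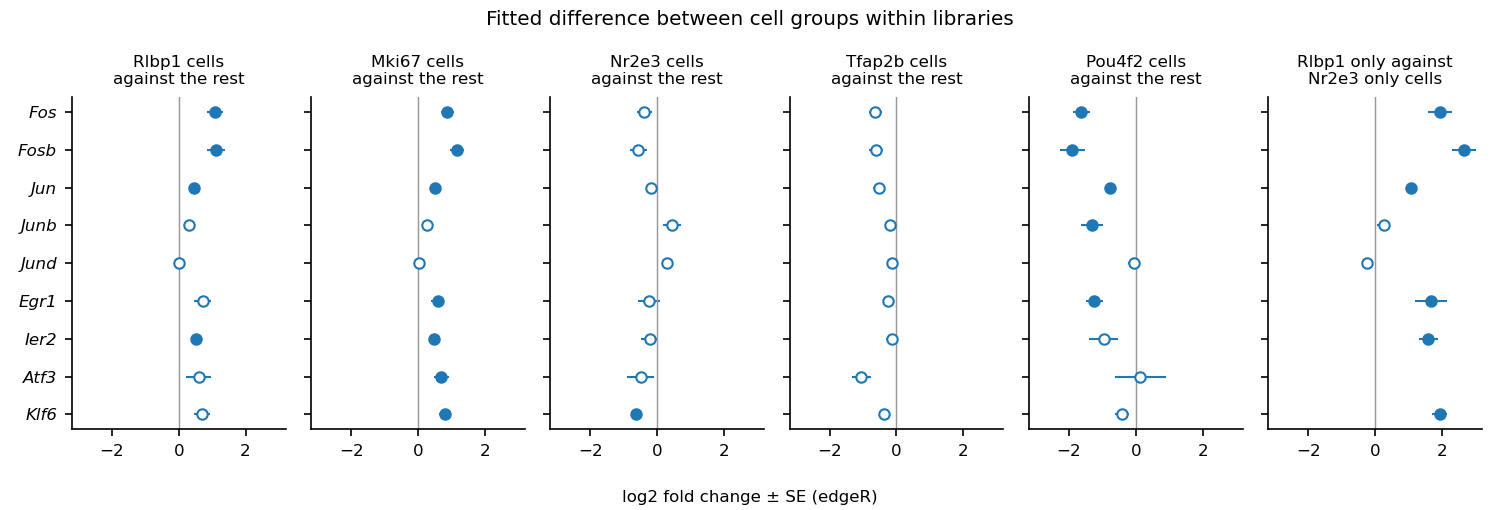
Fitted log2 fold change (± SE, edgeR) of each gene between cells with a marker and the remaining cells of the same libraries, and between cells with Rlbp1 only and with Nr2e3 only. Filled points have an adjusted p under 0.05. Fos, Fosb and Jun are right of 0 in Rlbp1 and Mki67 cells and left of 0 in Pou4f2 cells, and the filled points hold 0 of the Jund values, which lie between -0.25 and 0.30.

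The clearest contrast was that between cells with Rlbp1 as their sole marker and cells with Nr2e3 as theirs, in the 4 postnatal libraries with at least 20 cells of each. At P0, the 2 P3 libraries and P6, Fos was at 335.3, 571.2, 195.6 and 801.9 CPM in Rlbp1 cells and at 87.1, 134.7, 137.2 and 119.1 CPM in Nr2e3 cells. Nr2e3 cells thus spanned a narrower range (87.1 to 137.2 CPM) than Rlbp1 cells (195.6 to 801.9 CPM). Fos was higher in Rlbp1 cells by 1.96 ± 0.36 on the log2 scale (edgeR adjusted p = 0.00366, in 4 of 4 libraries).

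In all, 6 of the 8 genes tested were higher and 0 lower, in a comparison where 27.5% of all genes were higher and 25.0% lower. Atf3 was too low to be tested. Fosb was at 54.1, 116.4, 23.4 and 208.5 CPM in Rlbp1 cells and at 13.9, 17.7, 13.9 and 19.5 CPM in Nr2e3 cells, a difference of 2.67 ± 0.37 (edgeR adjusted p = 0.00129). Klf6 was at 72.7, 118.3, 64.2 and 164.2 CPM against 22.7, 31.7, 30.6 and 31.6 CPM, a difference of 1.94 ± 0.22 (edgeR adjusted p = 0.000618). Ier2 was at 241.2, 222.7, 143.1 and 292.2 CPM against 63.6, 71.8, 111.0 and 75.0 CPM, a difference of 1.60 ± 0.28 (edgeR adjusted p = 0.00335). In the second P3 library the Rlbp1 only cells held 8 Fosb and 49 Ier2 UMIs. Their exact Poisson intervals (10.1 to 46.0 and 105.9 to 189.2 CPM) reach the highest Nr2e3 values.

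Jun was at 408.0, 696.5, 338.7 and 981.4 CPM in Rlbp1 cells and at 178.5, 369.2, 135.9 and 613.7 CPM in Nr2e3 cells. The groups overlapped across ages but not within a library, and the difference was 1.08 ± 0.14 (edgeR adjusted p = 0.00113). Egr1 was at 249.2, 360.9, 169.4 and 625.5 CPM against 91.4, 84.7, 211.1 and 92.9 CPM. It was higher in Rlbp1 cells of 3 of 4 libraries and lower in the second P3 library (log2 ratio -0.32), with a difference of 1.67 ± 0.48 (edgeR adjusted p = 0.0228).

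The remaining Jun family genes did not follow. Junb was at 60.8, 53.4, 46.7 and 74.6 CPM in Rlbp1 cells and at 48.3, 54.5, 69.4 and 47.3 CPM in Nr2e3 cells, a difference of 0.26 ± 0.20 (edgeR adjusted p = 0.321). Jund was at 502.0, 709.3, 773.8 and 913.3 CPM against 596.3, 1003, 984.7 and 1026 CPM, lower in Rlbp1 cells of 4 of 4 libraries (-0.25 ± 0.14, edgeR adjusted p = 0.156), and DESeq2 called it lower. The median of the 8 log2 fold changes was 1.63, against 0.01 over all genes. Rlbp1 only cells were also higher in 6 of 8 glial genes (1 was lower), 6 of 6 cell cycle genes, 3 of 4 vascular and 2 of 2 astrocyte genes tested (median log2 fold change 5.44 for the latter) and 3 of 7 ganglion cell genes (0 lower), whose part in the result was not tested. They numbered 391, 1334, 68 and 1970 and had median depths of 5254, 4599, 4362 and 5497 UMIs, against 2861, 2493, 5301 and 2558 UMIs in 381, 2435, 378 and 5474 Nr2e3 only cells. With every cell thinned to 2000 UMIs 6 of the 8 genes were higher, as were 2348 of 10105 genes of any kind. On leaving out any 1 library 5 or 6 of the 8 or 9 tested were higher. In those fits from 1470 of 10708 to 3788 of 12284 genes of any kind were higher.

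**Figure D4:**
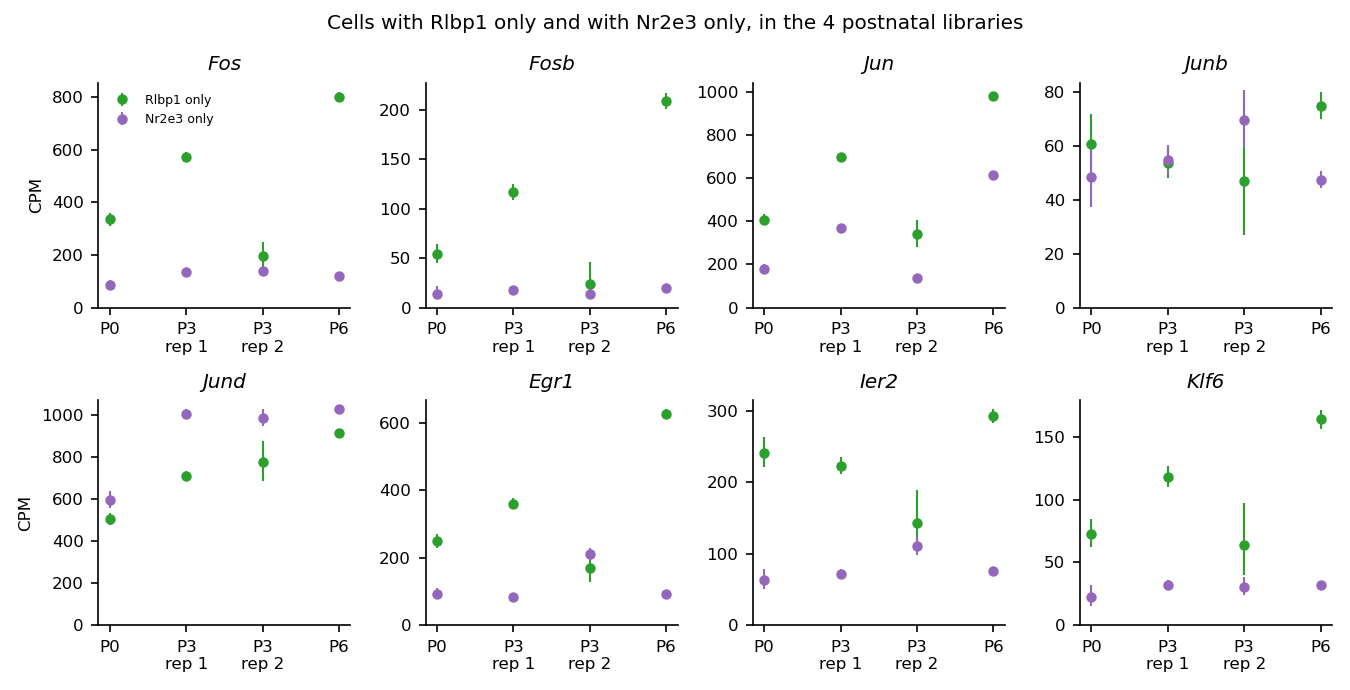
Levels (CPM, axes from 0) of 8 of the genes in cells with Rlbp1 only (green) and with Nr2e3 only (purple) in the 4 postnatal libraries, with exact 95% Poisson intervals. At P6 Fos is at 801.9 against 119.1 CPM, its widest gap, and Jund is lower in Rlbp1 only cells of each library. The second P3 library shows the smallest gap for Fos, Fosb, Ier2 and Klf6, and the reverse order for Egr1.

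Cells were next described by how many of the 9 genes they held. With each cell thinned to 2000 UMIs, 3 or more of the 9 genes were seen in 3.48% of cells at E14, 2.66% at E16, 27.4% at P0, 40.0% and 22.3% at P3 and 44.8% at P6. Without thinning the shares were 25.0%, 41.5%, 56.1%, 59.0%, 67.5% and 59.1%, and the older libraries were the deepest. Thinning left out 1269 cells at E14, 0 at E16, 272 at P0, 1197 and 0 at P3 and 1821 at P6. For thinned shares, here and for Fos below, marker groups were set from the thinned counts, so they are not the groups compared above. In the second P3 library they held 81 Rlbp1 only and 734 Nr2e3 only cells, against 68 and 378 at full depth. At P6, 78.3% (95% exact interval 76.4 to 80.1) of Rlbp1 only cells and 27.0% (25.6 to 28.3) of Nr2e3 only cells reached 3 genes. In the second P3 library the shares were 23.5% (14.8 to 34.2) and 28.3% (25.1 to 31.7). A mean P6 cell held 2.55 of the genes and a mean E14 cell 0.99.

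Fos itself was seen in 0.741% of thinned E14 cells and 29.4% of thinned P6 cells (2.69% and 39.6% unthinned). At P6 the thinned share was 57.9% of Rlbp1 only, 40.2% of Mki67 only, 15.6% of Nr2e3 only and 14.0% of Tfap2b only cells. No retinal cell type is known to lack these genes, so free RNA could not be measured from them directly. In the second P3 library 6.41% (2.11 to 14.3) of Pou4f2 only cells held Fos against 24.2% of Mki67 only cells, and at P0 the shares were 6.00% (1.25 to 16.6) and 30.2%, so the share differed between cell groups of 1 library.

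**Figure D5:**
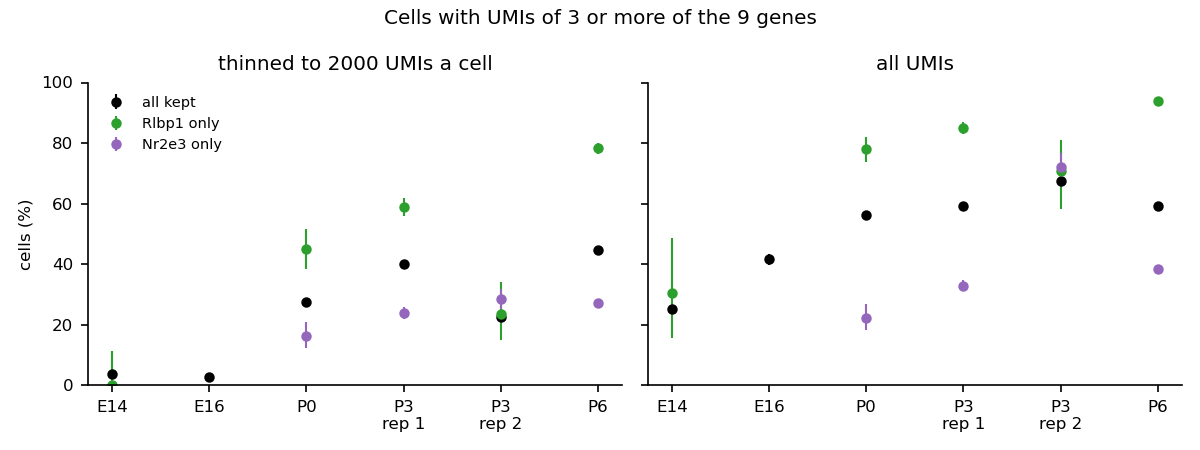
Share of cells (%) with UMIs of 3 or more of the 9 genes by library, with exact 95% binomial intervals, after thinning to 2000 UMIs (left) and with all UMIs (right). Marker groups are set from the thinned counts on the left and from all UMIs on the right. After thinning, all kept cells (black) lie under 4% at E14 and E16 and at 22.3% to 44.8% after birth. There, Rlbp1 only cells (green) lie above Nr2e3 only cells (purple) except in the second P3 library.

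Fos and Fosb were seen in the same cells more often than their shares alone would give. In thinned cells, they occurred together 8.44 times as often as the product of their shares at E14 (12 cells), 11.6 times at E16 (5 cells), 2.90 times at P0, 2.16 and 1.84 times at P3 and 2.38 times at P6. Fos and Egr1 occurred together 1.88, 1.69, 1.43 and 1.78 times as often in the postnatal libraries. Fos and Jund occurred together 1.04 to 1.09 times as often, close to the product of their shares. These ratios describe the cells of each library, which share cell type and preparation.

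Across the 27 sums of marker groups, centred within libraries, Fosb followed Fos most closely among the 9 genes (Pearson r = 0.96), then Jun (0.89), Junb (0.80), Egr1 (0.79), Ier2 (0.77) and Klf6 (0.73), and Jund did not (0.06). Among the other genes with a mean of at least 5 CPM, Heph, Naa10, 2900026A02Rik, Vamp8, Tgfb2, Gpx8, Cth and Pdpn had the highest r, between 0.94 and 0.95. The sums share libraries, depth and, where cells hold several markers, cells.

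Other genes of the same response were less uniform. Of 18 other immediate early transcription factors, 4 had a mean of at least 5 CPM, and of these Klf10 was at 6.99 CPM at E14 and 55.0 at P6, Srf, the factor that binds CArG boxes, at 4.76 and 10.3, and Nr4a2 at 4.26 and 4.20, while Id1 was lower at P6 (86.3 CPM, 0.432 times its E14 level). Of 16 measured signalling and feedback genes, 8 were past 2-fold higher at P6 than at E14 and 0 lower, against 15.1% and 7.28% of all genes. Gadd45g, a growth arrest gene, was at 18.9 and 318.9 CPM, Ier3 at 4.35 and 42.8, the ERK phosphatase gene Dusp5 at 5.08 and 49.6, and Trib1 at 16.2 and 128.1, and their P3 libraries differed by 0.67 to 1.54-fold. Of 13 upstream kinases and factors, 1 (Elk1, 9.64 and 19.9 CPM) was past 2-fold higher, against the same 15.1%.

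Heat shock genes, which help proteins fold under stress, were not higher: of 9 measured, 0 were past 2-fold higher and 3 past 2-fold lower at P6 than at E14, against 15.1% and 7.28% of all genes. The chaperone gene Hsp90ab1 was at 4232 CPM at E14, 1711 at E16, 2441 at P0, 2179 and 990.7 at P3 and 2063 at P6. In 6 of the 9 the first P3 library was past 2-fold above the second, against 14.8% of all genes, among them Hspd1 (279.0 and 77.7 CPM) and Dnaja1 (574.9 and 202.3 CPM). The second P3 library was thus low in these genes as in Fos, Fosb and Jun. E16, also in the older layout, was low as well. Summed over 12 heat shock genes, it was at 3735 CPM and the second P3 library at 2928 CPM, against 5470 to 9715 CPM in the other libraries. The part of the heat shock genes in the levels of the 9 immediate early genes was not tested.

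The other immediate early transcription factors were also compared between cell groups. In Rlbp1 cells 3 of 15 tested were higher and 0 lower, against 10.6% and 13.8% of all genes: Egr2 by 1.37 ± 0.27 on the log2 scale (edgeR adjusted p = 0.0151), Egr3 by 1.28 ± 0.35 and Id1 by 0.81 ± 0.23. In Mki67 cells 3 of 15 were higher and 1 lower, no larger a share than the 22.3% and 21.1% of all genes, among them Id1 (1.51 ± 0.17) and Srf (0.46 ± 0.10), and Myc, a driver of growth, fell by 1.52 (SE 0.31, edgeR adjusted p = 0.00589). Of the signalling and feedback genes, 8 of 21 were higher and 3 lower in Mki67 cells, with Zfp36l1, which speeds the decay of immediate early RNAs, higher by 1.56 ± 0.11 and Ier3 lower (-1.03 ± 0.25). In Pou4f2 cells 7 of 22 were lower and 1 higher, against 8.11% and 12.7% of all genes, among them Zfp36l1 (-1.93 ± 0.50), Dusp5 (-1.49 ± 0.39), Gadd45g (-1.44 ± 0.30) and Socs3 (-1.38 ± 0.28).

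In the comparison of Rlbp1 only with Nr2e3 only cells, the other genes split. Of 9 other transcription factors tested 4 were higher and 1 lower in Rlbp1 cells, of 18 signalling and feedback genes 9 were higher and 5 lower, of 10 heat shock genes 6 were higher and 1 lower, and of 13 upstream kinases and factors 0 were higher and 6 lower, where 27.5% of all genes were higher and 25.0% lower. Egr2, a relative of Egr1, was higher by 3.39 ± 0.43 on the log2 scale in Rlbp1 cells (edgeR adjusted p = 0.000977), Id1 by 2.84 ± 0.43, Maff by 1.62 ± 0.39, and the feedback genes Spry4 and Zfp36l1 by 3.46 ± 0.63 and 3.33 ± 0.59. Klf10 (-2.98 ± 0.24), Dusp5 (-2.38 ± 0.13) and the NF-kappaB inhibitor gene Nfkbia (-2.18 ± 0.19) were lower in Rlbp1 cells, that is, higher in Nr2e3 cells. The kinase gene Mapk8, which encodes JNK1, and Elk1 were also lower in Rlbp1 cells, at -1.16 ± 0.15 and -1.30 ± 0.15 (edgeR adjusted p = 0.00111 and 0.000692).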

How the data were processed

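Per the labels and the methods of the study, the authors pooled retinas, digested them with papain, sorted DAPI-negative single cells with scatter gates against doublets and prepared 10x Genomics libraries. Per the file headers, the deposited values are raw UMI counts per gene and barcode, with no normalization, made with Cell Ranger 6.1.2 in 4 libraries; the version behind the other 2 is not given in the sources used here, and the submitters' processing notes name mm10. The newer matrices list 32285 gene identifiers and the older 27998, of which 27040 are shared.

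From these counts, cells with more than 300 genes and at most 15% mt- UMIs were kept. No doublet caller was run, and cells with 4000 or more genes or several markers were left out in alternatives. A marker cell held at least 1 UMI of the marker. Sums of at least 20 cells were tested with edgeR 4.0.16 (quasi-likelihood, filterByExpr, TMM, library as block, Benjamini-Hochberg threshold 0.05) in R 4.3.3, with DESeq2 1.42.0 as an alternative. The 2 sums of a comparison come from the same library, and their deviations from the group means correlated at 0.41 to 0.88, so the block pairs them by design. Cells of 1 library are not replicates, and p-values measure the spread between libraries of different ages. On simulated data, 91 to 163 of 200 genes changed 2-fold were recovered in each of the 6 comparisons, with 4 to 8 false calls. For shares of cells, each cell was thinned to 2000 UMIs (Python 3.11.15, fixed seed).

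The 9 genes, the markers and the gene lists were chosen with earlier results of these data known. Other genes were named by rule: up to 4 per list with the largest fold past the threshold or, between P6 and E14, among genes of at least 5 CPM, and the 8 most correlated with Fos. Promoter sequences come from RefSeq (GRCm38.p6). Egr1 and Ier2 sequences were not used here. Motifs were chosen after the levels were seen.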

Additional observations from a re-analysis of the deposited data

Results flagged for a closer look

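Barcodes with more than 15% mitochondrial UMIs were left out of every comparison, and 4 libraries held at least 20 of them. The 9 genes were detected in these barcodes, with 117 to 338 UMIs per library, which was above the limit of 3 counts that a count of 0 allows. Their summed level was 448.8 CPM at E14 (202 barcodes), 403.4 CPM at P0 (173 barcodes), 628.7 CPM in the first P3 library (398 barcodes) and 1003 CPM at P6 (235 barcodes). In the kept cells of the same libraries the sums were 730.5, 1396, 2167 and 2709 CPM. Their median depth was 1003 to 1485 UMIs.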

How the results depend on the processing

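With 1 library per age, a P3 pair that differs in file layout and a second P3 library whose markers overlap, age, layout and library cannot be told apart, and depth limits Atf3 most. Of the 9 genes, the number higher in Rlbp1 cells was 4, and it was 0 without the replicate block, 1 with at least 2 UMIs of the marker and 8 with none of the other markers, and it ran from 0 (without P0 or the first P3 library) to 5 on leaving out 1 library. For Mki67 cells 7 were higher, 0 without the replicate block, 4 in the newer layout, and 5 to 8 on leaving out 1 library. For Nr2e3 cells 1 was lower, 0 without the replicate block, 2 with none of the other markers, with thinning or with at most 5% mt- UMIs, 6 in the newer layout, and 0 to 4 on leaving out 1 library (0 without P0, the first P3 library or P6, 4 without the second P3 library). For Tfap2b cells 0 were lower, 2 with DESeq2 or none of the other markers, and 5 with thinning. For Pou4f2 cells 5 were lower, 0 without the replicate block or in the newer layout, 3 with none of the other markers or with thinning, and 0 (without the second P3 library) to 5 on leaving out 1 library, with 2 without E14. For Rlbp1 only against Nr2e3 only cells the number stayed within 5 to 7 of the genes tested, 5 without the replicate block. Over the alternatives, genes of any kind called numbered 6 to 4781 (3408 as reported) for Rlbp1, 1356 to 6859 (6208) for Mki67, 362 to 6967 (3244) for Nr2e3, 3 to 2640 (51) for Tfap2b, 0 to 4693 (2919) for Pou4f2 and 2910 to 7209 (6077) for the last comparison. The causes were not tested.

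Among the alternative values for the fold changes of the 9 genes, 655 kept direction and side of the threshold, 70 no longer passed, 38 newly passed and 23 changed sign, none of which had passed as reported. Jund in Rlbp1 cells (0.01) was at -0.012 with no filter on low counts, -0.060 with none of the other markers, -0.080 with thinning, -0.071 with fewer than 4000 genes, -0.11 in the newer layout and -0.037 to 0.072 on leaving out 1 library. In Mki67 cells (0.03) it was at -0.053, -0.14 and -0.083 with none of the other markers, thinning and fewer than 4000 genes, -0.0042 with at most 5% mt- UMIs, -0.16 in the newer layout and -0.053 to 0.10 on leaving out 1 library. In Pou4f2 cells (-0.05) it was at 0.14 with none of the other markers, 0.024 with fewer than 4000 genes, 0.31 in the newer layout and -0.18 to 0.21 on leaving out 1 library. Atf3 in Pou4f2 cells (0.14) was at -1.27 in the newer layout and -0.40 to 1.04 on leaving out 1 library. On leaving out 1 library, Egr1 in Nr2e3 cells ran from -0.64 to 0.022 and Ier2 in Tfap2b cells from -0.24 to 0.018. Between the P3 libraries, the log2 ratio of Junb turned to 0.14 as a mean over cells, 0.16 with fewer than 4000 genes and 0.38 with thinning, and that of Jund to 0.077, 0.017 and 0.041. The ratio of Jund between P0 and E16 turned to 0.084, 0.11 and 0.10. The difference in mean members per cell between P6 and E14 was 1.56, and 1.07 with thinning to 1000 UMIs. Genes with all postnatal libraries above both embryonic ones numbered 5 to 7 (6 as reported) and those past 2-fold higher at P6 than at E14 7 to 8 under other scalings and filters.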
